A study of Mus musculus with 3 samples.

Results

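Cyp1a1 Enpp6 Crispld1 endothelial cells were a minor population of the blood endothelial cells (EC) of mouse Peyer's patches (PP), the lymphoid organs in the wall of the small intestine. They made up 296 of 7048 blood EC in 3 single-cell RNA libraries. A blood EC was a cell with at least 500 genes, at least 1000 unique molecular identifiers (UMIs, each standing for 1 captured transcript) and no more than 10% mitochondrial UMIs. It also held 3 or more UMIs of Pecam1, Cdh5, Egfl7, Emcn and Flt1, fewer fibroblast UMIs (Col1a1, Col1a2, Dcn, Pdgfra, Lum) than these, and no more than 1 lymphatic UMI (Mmrn1, Reln, Prox1). A member was a blood EC with 3 or more UMIs of Cyp1a1, Enpp6, Crispld1, Cyp26a1 and Mal together, and no more than 1 of Selp, Adgrg6, Cytl1 and Fxyd6. These counts chose the cells, so the level of the rule's genes in the members is a description and was not tested.

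The study compared control mice with EC-iCOUP OE mice, in which tamoxifen switches on extra COUP-TFII, the transcription factor encoded by Nr2f2, in endothelium. The control library was labelled WT and C57BL/6. The 2 EC-iCOUP OE libraries came from CDH5(PAC)CreERT2;COUP-TFIIOE/OE animals, where the Cdh5 promoter drives the inducible recombinase. All mice were 6 to 10 weeks old, and the protocol places the isolation of cells, controls included, 14 to 19 days after tamoxifen. The methods name littermates without the Cre transgene as controls, whereas the label of the control library says WT, so whether its mice had received tamoxifen is not clear and treatment cannot be told apart from genotype. Each library mixed cells of males and females, with the number of mice not given in the sources used here. The control library held 6080 barcodes and 17341398 UMIs, EC-iCOUP OE replicate 1 held 4959 and 17417260, and replicate 2 held 1441 and 3548983. Barcodes starting with AAACCT numbered 14, 0 and 2 in the control, replicate 1 and replicate 2, and those starting with AAACCC 0, 6 and 0. The labels name both a v3 platform and a v2 kit, and whether replicate 1, which holds most members, was made with another chemistry was not tested. The control and replicate 2 shared 12 barcodes, none of them a member. With 1 control library no test between genotypes was made: an exact permutation test of 1 against 2 libraries cannot go below p = 0.333. Intervals given for single libraries are 95% and cover counting error only.

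Blood enters a PP through arteries, passes capillaries, and leaves through high endothelial venules (HEV) and post-capillary venules (PCV). Arterial endothelium carries connexins such as Gja4 and Gja5 and Notch-driven repressors such as Hey1. Capillaries carry lipid-handling genes such as Gpihbp1 and Cd36. Venules carry Ackr1 and Selp and, in the gut, Madcam1, the vascular addressin that lymphocytes bind through the integrin alpha4beta7. COUP-TFII is known as a factor of venous identity, and Nkx2-3 is a homeodomain factor of gut and spleen endothelium. Of the genes that chose these cells, Cyp1a1 is a monooxygenase and a classic target of the aryl hydrocarbon receptor, Cyp26a1 breaks down retinoic acid, Enpp6 is a choline phosphodiesterase, and Mal is a membrane proteolipid. The role of Crispld1, a secreted CAP-domain protein, in endothelium is not well known.

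Promoters of Madcam1, the readout of the study, and of Cyp1a1, the first of the naming genes, are shown because factors measured below are known to recognise short motifs of this kind. Both run from 250 bases before to 50 after the RefSeq start (GRCm38.p6), 5′ to 3′ on the plus strand. The Cyp1a1 start used lies inside the gene's span given below, not at its edge, so distances hold for that start only. In Madcam1 (chr10:79664309-79664608) capitals mark TGACC or its reverse complement GGTCA, a nuclear receptor half-site, and AAGTG or CACTT, a core of NK2 homeodomain sites. In Cyp1a1 (chr9:57697363-57697662) capitals mark GCGTG or CACGC, the core of the dioxin response element.
Madcam1: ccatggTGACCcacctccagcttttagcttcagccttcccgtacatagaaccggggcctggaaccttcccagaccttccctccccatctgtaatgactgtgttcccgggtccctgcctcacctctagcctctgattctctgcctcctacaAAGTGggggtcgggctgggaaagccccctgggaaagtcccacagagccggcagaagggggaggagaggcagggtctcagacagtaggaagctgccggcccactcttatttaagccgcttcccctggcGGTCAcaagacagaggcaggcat
Cyp1a1: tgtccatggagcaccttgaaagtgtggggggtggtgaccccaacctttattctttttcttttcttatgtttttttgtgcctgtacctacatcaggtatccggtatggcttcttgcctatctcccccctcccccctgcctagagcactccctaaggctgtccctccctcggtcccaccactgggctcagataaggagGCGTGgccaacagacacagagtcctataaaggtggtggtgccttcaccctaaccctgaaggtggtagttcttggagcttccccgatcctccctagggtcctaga
The Madcam1 window held TGACC starting 244 bases before the start, AAGTG starting 100 bases before it and GGTCA starting 27 bases after it, and the matches did not overlap. The Cyp1a1 window held GCGTG starting 54 bases before the start. It also held TGACC and AAGTG, which are not in capitals there, so these words are not particular to Madcam1. Such short words are common: among 32851 promoter windows of this length, 40.5% held TGACC or its complement, 46.4% AAGTG or its complement, and 32.4% GCGTG or its complement. The matches are a description of letters, not of binding. The paper's composite element, with its homeodomain and COUP-TFII sites, was absent from a shorter Madcam1 reporter that reached further upstream than the Madcam1 window. If both count from the same start, the window leaves out most or all of that element. The marked words were not shown to be its sites.

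The genes of the rule took different shares in each library. Cyp1a1 (chr9:57687928-57703824) had 27 UMIs in 9 of 20 control members, 204 in 78 of 242 members of EC-iCOUP OE replicate 1 and 58 in 15 of 34 members of replicate 2. Enpp6 (chr8:46986887-47096762) had 4 UMIs in 3 control members, 298 in 162 members of replicate 1 and 50 in 22 members of replicate 2. Thus Enpp6, present in 66.9% and 64.7% of EC-iCOUP OE members, was found in 15.0% of control members. Mal (chr2:127633226-127656695) had 36, 300 and 33 UMIs in the 3 libraries, in the same order, and was the most counted rule gene in the control and in replicate 1. Crispld1 (chr1:17727045-17766344) had 11, 189 and 9 UMIs. Cyp26a1 (chr19:37697798-37701536) had 0, 65 and 6 UMIs, so the control members were chosen without it. Most cells passed on 2 or more of these genes, while 7 of 20, 41 of 242 and 12 of 34 passed on a single gene, and no cell held all 5. Control members were thus chosen mostly by Cyp1a1 and Mal, which made up 34.6% and 46.2% of their rule UMIs.

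**Figure D1:**
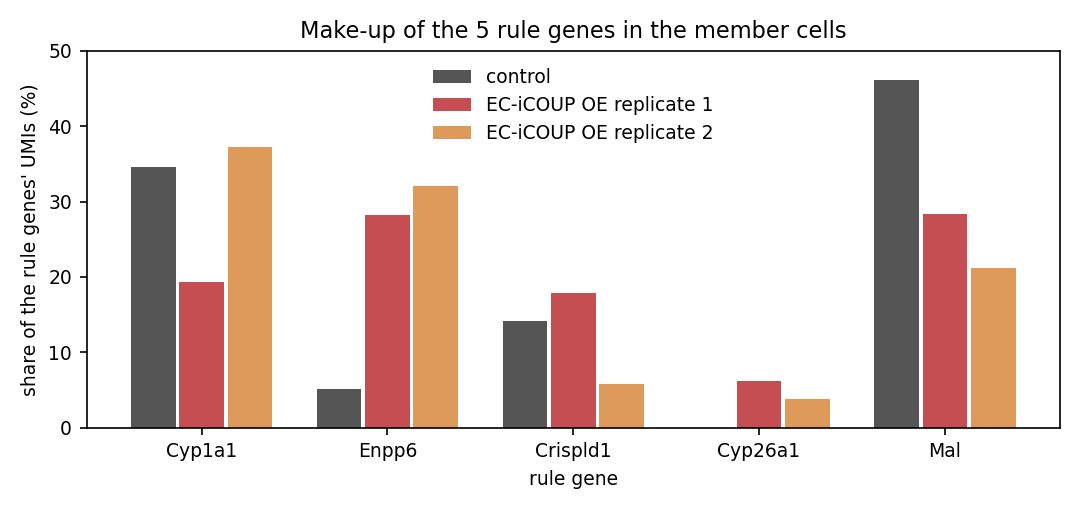
Share of the UMIs of the 5 rule genes that each gene took among member cells (y axis, percent), with 1 bar per library. Mal and Cyp1a1 made up most of the control members' rule UMIs, while Enpp6 took 28.2% and 32.1% in the EC-iCOUP OE libraries against 5.13% in the control.

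Members formed 0.810% of blood EC in the control library (20 of 2469, exact binomial interval 0.495 to 1.25%). In EC-iCOUP OE replicate 1 they formed 6.70% (242 of 3613, 5.90 to 7.56%), and in replicate 2 they formed 3.52% (34 of 966, 2.45 to 4.88%). Both EC-iCOUP OE libraries lay above the control beyond counting error, and at this threshold they also differed from each other beyond it. The rule's 5 genes were also higher in other blood EC of both these libraries than in the control. Enpp6 was at 6.42, 27.0 and 32.5 CPM (defined below) there in control, replicate 1 and replicate 2. Mal was at 9.56, 25.8 and 31.2 CPM, and Crispld1 at 10.5, 21.1 and 18.8 CPM. Cyp26a1 was at 0.121, 5.70 and 5.12 CPM, and Cyp1a1 at 3.39, 6.40 and 8.97 CPM. Whether the larger shares mean more such cells or more of these transcripts in blood EC at large was not tested. Members were sequenced to a median of 2128.5 UMIs in the control, 3861 in replicate 1 and 2593.5 in replicate 2, against 2306, 3196 and 2307 in other blood EC. Since a threshold on UMIs favours deep cells, the rule was repeated after every cell was thinned to 1000 UMIs. The shares then fell to 0.243% (0.0892 to 0.528%), 1.16% (0.839 to 1.57%) and 0.828% (0.358 to 1.63%), so that the control and replicate 2 intervals overlapped. Over 20 draws, added after the first was seen, they ranged from 0.122 to 0.284%, 0.830 to 1.25% and 0.518 to 1.04%, with the control below both EC-iCOUP OE libraries throughout. With 2 UMIs in place of 3 the shares were 2.11%, 11.9% and 8.90%, and with 5 UMIs they were 0.203%, 2.13% and 0.932%, in the same order of libraries. Intervals of the EC-iCOUP OE replicates overlapped each other with 2 UMIs, with 5 UMIs and after thinning.

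**Figure D2:**
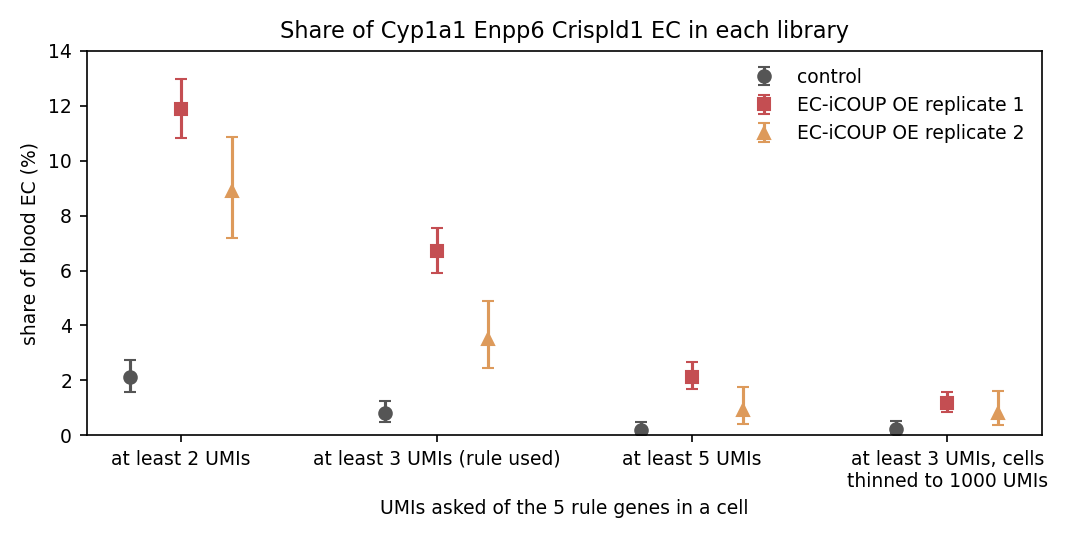
Share of blood EC (y axis, percent) that passed the rule in each library, at 3 UMI thresholds and after thinning every cell to 1000 UMIs, with exact 95% binomial intervals that cover counting error only. The control stood lowest at each setting, and its interval met that of EC-iCOUP OE replicate 2 at 5 UMIs and after thinning.

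Cells just inside and just outside the threshold were compared for Stmn2, Gja4 and Madcam1. Members with exactly 3 rule UMIs (10, 104 and 14 cells in control, replicate 1 and replicate 2) had Stmn2 at 339, 818 and 789.7 CPM, the UMIs of a gene scaled to the same total of 1000000 UMIs in every sum. Cells with 2 rule UMIs, left outside (32, 187 and 52 cells), had Stmn2 at 694, 649 and 615 CPM. Gja4 was at 1611, 331 and 436 CPM inside and 1448, 288 and 300.4 CPM outside. Madcam1 was at 0, 1974 and 2887 CPM inside and 271, 2025 and 2615 CPM outside. In the control the sides differed in Stmn2 and Madcam1, on 10 and 32 cells, and in the EC-iCOUP OE libraries they were closer. Blood EC with 0 rule UMIs lay further off in 2 of these genes, with Stmn2 at 137, 116 and 173 CPM and Gja4 at 247, 87.9 and 155 CPM. Their Madcam1, at 6644, 3892 and 2622 CPM, lay further off in the control and replicate 1 but not in replicate 2.

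To describe vessel type, members were set against all other blood EC and against 3 reference classes of non-member blood EC. The arterial gate asked for 2 or more UMIs of Gja5, Bmx, Sema3g and Gkn3 with no more than 1 of Selp and Ackr1 (254, 79 and 25 cells in control, replicate 1 and replicate 2). The capillary gate asked for 5 or more UMIs of Cd36, Gpihbp1, Kdr, Rgcc, Car4 and Cd300lg, no more than 1 UMI of the arterial gate's genes, no more than 1 of Selp and Ackr1 and none of the HEV genes Chst4 and Fut7 (394, 702 and 334 cells). The PCV gate asked for 3 or more UMIs of Selp and Ackr1 with no more than 1 HEV count (532, 801 and 114 cells). UMIs were summed per library and class and tested with edgeR's quasi-likelihood test, with the library as a block, 22 rule genes and the gate's genes left out, and Benjamini-Hochberg adjustment over all genes tested. Because the rule's genes were chosen on these same cells, genes carried together with them had to differ, and a p measures how far a difference repeats over the 3 libraries. Against other blood EC 454 of 9877 genes passed an adjusted p of 0.05 (4.6%), 193 of them higher in members (1.95%) and 261 lower (2.64%). Against the arterial gate 42 of 3849 genes passed (1.09%; 0.312% higher, 0.779% lower), against the capillary gate 506 of 8459 (5.98%; 2.92% higher, 3.06% lower) and against the PCV gate 712 of 7932 (8.98%; 4.26% higher, 4.72% lower). Replicate 1 held 242 of the 296 members, and without it 63 genes passed against other blood EC, 9 against the arterial gate, 112 against the capillary gate and 203 against the PCV gate.

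The members carried arterial genes at levels between those of the arterial gate and the rest. Of 17 tested genes of an arterial list, 13 were higher in members than in other blood EC and 1, Clu, was lower, with a median log2 fold change of 1.12 against -0.065 for all genes tested. Without Stmn2, which is among the genes the population was described by, 12 of 16 were higher. Gja4, the connexin 37 gene, was at 1096, 362 and 297 CPM in members of the control, replicate 1 and replicate 2, and at 240.4, 101 and 159 CPM in other blood EC. Members exceeded other blood EC in each library, and a Gja4 UMI was seen in 20 of 20, 141 of 242 and 13 of 34 of them, with a log2 fold change of 1.52 (adjusted p = 1.17e-11, edgeR). Gja5, the connexin 40 gene, was at 241, 45.8 and 69.2 CPM in members and 35.8, 8.04 and 8.54 CPM in other blood EC (log2 fold change 2.47, adjusted p = 6.02e-12, edgeR). Fbln5, a matrix protein of elastic fibres, was at 632, 868 and 623 CPM against 314, 275 and 224 CPM (log2 fold change 1.24, adjusted p = 3.54e-07, edgeR). The arterial ligand gene Efnb2, the Notch ligand gene Jag1, the growth factor gene Vegfc and the endothelin gene Edn1 were higher as well, with log2 fold changes of 1.27, 1.12, 1.25 and 1.01. Stmn2, a microtubule-binding protein, was at 297, 788 and 613 CPM in members and 149, 170.1 and 213 CPM in other blood EC. Of these arterial genes, Gja4, Gja5, Efnb2, Jag1, Vegfc and Edn1 were highest in the control members. Fbln5 was highest in replicate 1, and Stmn2 was higher in both EC-iCOUP OE libraries than in the control. The count of higher arterial genes was 9 with DESeq2, 5 of 16 without replicate 1 and 0 without the library block.

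**Figure D3:**
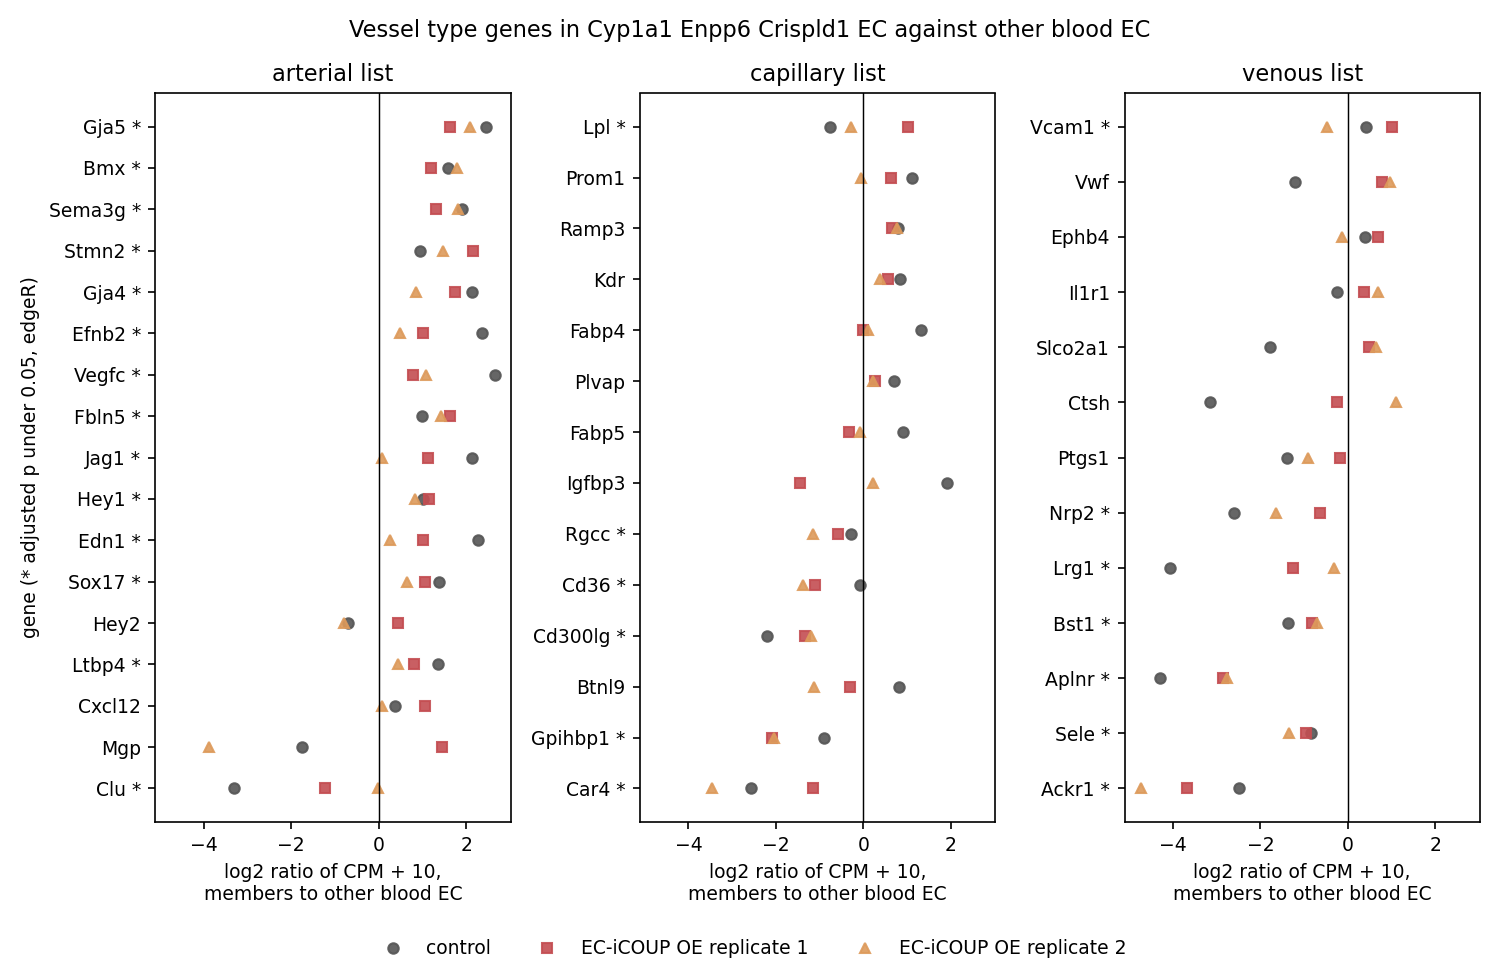
Log2 ratio of CPM (with 10 CPM added) in members to other blood EC (x axis) for each tested gene of the arterial, capillary and venous lists, with 1 point per library and an asterisk for an adjusted p under 0.05 (edgeR). Arterial genes lay to the right of 0 with 14 of 17 higher in all 3 libraries, while venous genes lay mostly to the left.

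Pooled over the members, the arterial list stood below its level in arterial-gate EC. Whether the pool mixed arterial and other cells, or each cell carried part of the list, was not tested. Against arterial-gate EC no gene of the arterial list was higher and 6 of 13 were lower, with a median log2 fold change of -0.79 against 0.0081 for all genes tested. The lower genes were Gja4, Hey1, Fbln5, Mgp, Clu and Stmn2, of which 1 passed with DESeq2 and 1 to 2 when any single library was left out. Gja4 stood at 977, 858 and 1174 CPM in arterial-gate EC, so that the control members were level with it and the EC-iCOUP OE members were well below. Mgp, a calcification inhibitor of artery walls, was at 55.7, 220.5 and 0 CPM in members and 1248, 897 and 899 CPM in arterial-gate EC. Against capillary-gate EC 10 of 14 arterial genes were higher in members, with none lower, and against PCV-gate EC 15 of 16 were higher. Summed over the list, arterial CPM was 6780.5, 4762 and 4676 in members, 9411 to 10472 in arterial-gate EC over the 3 libraries, and 1791 to 3897 in capillary-gate EC. These sums include genes that the arterial gate counts. Without the gates' genes and without Clu the arterial sum was 5703, 4297 and 3974 CPM in members, 7489.96, 7639 and 8384 CPM in arterial-gate EC and 3260.4, 1634 and 2004 CPM in capillary-gate EC. In control PCV and other blood EC the sum was high because Clu took 81.6% and 66.5% of it. Without Clu it was 6316, 4431 and 4280.1 CPM in members and 2378, 1677 and 2553 CPM in other blood EC.

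The members spread over the gates unevenly. The arterial gate would have taken 9 of 20 control members (45.0%), 25 of 242 members of replicate 1 (10.3%) and 7 of 34 members of replicate 2 (20.6%), against 10.4%, 2.34% and 2.68% of other blood EC. The capillary gate would have taken 1, 64 and 6 members (5.0%, 26.4% and 17.6%), against 16.1%, 20.8% and 35.8% of other blood EC. The PCV gate would have taken 1, 3 and 0 members, against 21.7%, 23.8% and 12.2% of other blood EC. No gate took 9, 150 and 21 members. Within EC-iCOUP OE replicate 1, arterial-gated members had Gja4 at 657 CPM and Madcam1 at 819.7 CPM, and capillary-gated members had Gja4 at 232 CPM and Madcam1 at 2495 CPM. The arterial and capillary ends of the population thus differed in Madcam1 in the opposite direction to Gja4. Replicate 2 had the same order, with Madcam1 at 1105 and 2722 CPM, on 7 and 6 cells.

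Capillary genes went both ways. Against other blood EC 5 of 14 genes of the capillary list were lower in members (Cd36, Gpihbp1, Rgcc, Car4 and Cd300lg) and 1, the lipase gene Lpl, was higher. Lpl rested on 19 UMIs of replicate 1 alone. Gpihbp1, which anchors lipoprotein lipase to the capillary wall, was at 55.7, 7.47 and 19.8 CPM in members and 111, 64.8 and 112 CPM in other blood EC (log2 fold change -2.75, adjusted p = 2.57e-11, edgeR). Car4, a carbonic anhydrase of capillary surfaces, had 0 UMIs in all members, which allows up to 55.7, 2.80 and 29.7 CPM in the control, replicate 1 and replicate 2, against 49.4, 12.0 and 101 CPM in other blood EC. Other genes of the list were as high in members as elsewhere: Plvap, the diaphragm protein of fenestrae, was at 4421, 4973 and 4824 CPM against 2696, 4149 and 4107 CPM (log2 fold change 0.19, adjusted p = 0.906, edgeR). Kdr was at 594, 604 and 554 CPM against 325, 402 and 419 CPM (log2 fold change 0.42, adjusted p = 0.372, edgeR). Fabp4, a fatty acid carrier, was at 9158, 9245 and 6504 CPM in members, and higher than in arterial-gate EC (log2 fold change 0.57, adjusted p = 0.00864, edgeR). Against capillary-gate EC, Fabp5, Igfbp3 and Btnl9 were lower, 3 of 8 tested.

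Venous genes were mixed, and the upper limit on Selp, Adgrg6, Cytl1 and Fxyd6 takes venular cells out of the members by construction. Against other blood EC 6 of 13 genes of the venous list were lower (Ackr1, Nrp2, Aplnr, Lrg1, Bst1 and Sele) and 1, Vcam1, was higher. The duffy-family chemokine receptor gene Ackr1 was at 130.0, 28.0 and 0 CPM in members and 778, 476 and 257 CPM in other blood EC. Aplnr, the apelin receptor gene, was at 0, 49.5 and 39.5 CPM against 186, 422 and 325 CPM (log2 fold change -3.22, adjusted p = 2.01e-26, edgeR). Without the upper limit the counts were 5 lower and 1 higher. Lifting it gave 22, 273 and 37 members in place of 20, 242 and 34. With mostly the same cells, this cannot show whether the split rests on the limit. Vcam1 was at 55.7, 106 and 29.7 CPM against 39.3, 47.1 and 44.8 CPM and was not higher in replicate 2. All 3 control UMIs of Vcam1 lay in 1 cell, without which it was higher in replicate 1 only. All 6 tested genes of the HEV list (Fut7, Glycam1, Gcnt1, Ccl21a, Enpp2 and Chst2) were lower in members. All 6 were lower without the upper limit too, again on mostly the same cells. Over the 14 settings run, 1 to 6 genes of the list were called lower.

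Some venous genes were nonetheless strong in EC-iCOUP OE members. Vwf, the platelet-binding factor of larger vessels, was at 55.7 CPM in control members and 1031 and 869.9 CPM in EC-iCOUP OE members. Slco2a1, a prostaglandin transporter, was at 130.0, 1599.7 and 1236 CPM in the same order, and Lrg1, a secreted glycoprotein, at 186, 1038 and 1730 CPM. The control members were low in all of these and the EC-iCOUP OE members high, but arterial-gate and capillary-gate EC differed between the libraries in the same direction. Lrg1 was at 50.7, 484 and 579 CPM in arterial-gate EC and 112, 1014 and 1329 CPM in capillary-gate EC. Against capillary-gate EC, 5 of 10 venous genes were higher in members (Vwf, Vcam1, Ctsh, Slco2a1 and Il1r1) and 2 lower (Nrp2 and Aplnr). Vwf had a log2 fold change of 1.37 there (adjusted p = 2.71e-12, edgeR) and Ctsh, a lysosomal protease, 2.60 (adjusted p = 1.43e-16, edgeR). Against arterial-gate EC, Lrg1 and Slco2a1 were higher, 2 of 9 tested. In the control, however, Slco2a1 stood lower in members, at 130.0 CPM against 217 CPM in arterial-gate EC and 287 CPM in capillary-gate EC. All 10 control UMIs of Lrg1 lay in 1 cell. Against PCV-gate EC 7 of 12 venous genes were lower and none was higher. Summed over the venous list, members stood at 743, 4685 and 4359 CPM, above capillary-gate EC in both EC-iCOUP OE libraries (3579 and 3079.9) but not in the control (1017), and below PCV-gate EC (8506, 8451 and 9738). Ackr1, which the PCV gate counts, is in this list, and without it members stood at 613, 4657 and 4359 CPM and PCV-gate EC at 6503, 7311 and 8103 CPM.

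**Figure D4:**
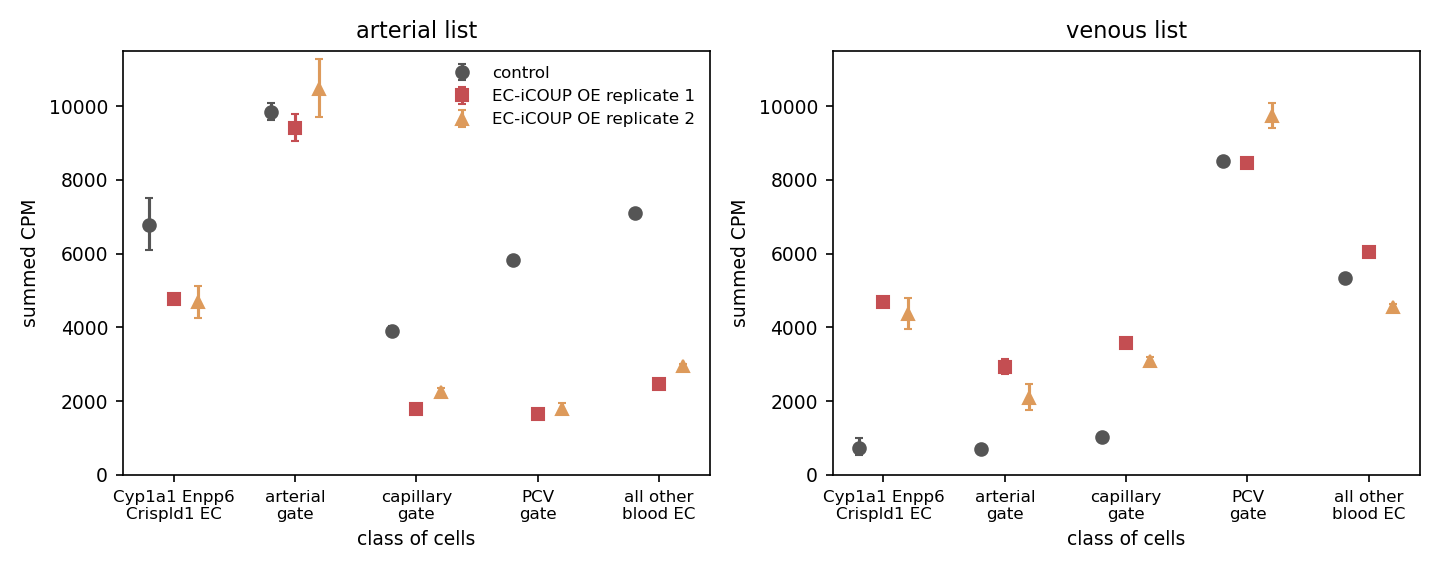
Summed CPM of the arterial list (left) and the venous list (right) in each class of cells and library, with Poisson 95% intervals that cover counting error only. Members lay between the arterial gate and the capillary gate on the left, and between the capillary gate and the PCV gate on the right in the EC-iCOUP OE libraries. The lists include genes that the gates count (Gja5, Bmx, Sema3g, Gkn3 and Ackr1), so part of this order is set by the gates.

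The genes that set the members most evenly apart from other blood EC, ordered by the smallest difference of the 3 libraries, were Tmem100, St8sia6, Gja5, Eps8l2, Tspan8, Sema3g, Slc6a6, Bmx, Azin1 and Serpinf1. Tmem100, a membrane protein of arterial endothelium known to respond to BMP signals, was at 483, 282 and 237 CPM in members and 64.8, 63.5 and 60.2 CPM in other blood EC (log2 fold change 2.13, adjusted p = 2.16e-19, edgeR). Slc6a6, the taurine transporter, was at 372, 1314 and 1166 CPM against 153, 398 and 468 CPM (log2 fold change 1.31, adjusted p = 2.40e-07, edgeR). Azin1, an antizyme inhibitor that raises polyamine synthesis, was at 334, 308 and 267 CPM against 91.4, 82.6 and 113 CPM. Sema3g, an arterial semaphorin, and Bmx, an arterial tyrosine kinase, had log2 fold changes of 1.73 and 1.94, but their genes are counted by the arterial gate. None of Tmem100, St8sia6, Eps8l2, Tspan8, Slc6a6 and Azin1 passed against arterial-gate EC, where their log2 fold changes lay between -0.41 and 0.11. Serpinf1, which encodes the anti-angiogenic factor PEDF, was higher than in other blood EC by 2.58 and lower than in arterial-gate EC (log2 fold change -1.65, adjusted p = 0.0118, edgeR). Its UMIs were few, with 9, 32 and 3 in the members of the 3 libraries.

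The genes most evenly lower in members were Ccl21a, Ubd, Aplnr, Tgfbi, Ackr1, Fscn1, Camk4, Gm32688, Klk8 and Enpp2. Ubd, a ubiquitin-like protein, was at 55.7, 5.61 and 0 CPM in members and 2263, 238 and 83.7 CPM in other blood EC (log2 fold change -5.61, adjusted p = 7.43e-45, edgeR). Enpp2, the lysophosphatidic acid producing enzyme of HEV, was at 0, 28.0 and 9.88 CPM against 788, 259.8 and 52.1 CPM. Ccl21a, a chemokine of HEV, was at 111, 45.8 and 89.0 CPM against 3544, 2533 and 1002 CPM, although more than 1 gene model carries that symbol and its reads cannot be told apart. Odc1, the rate-limiting enzyme of polyamine synthesis, was outside this group of 10 and was chosen after its values were seen, since Azin1 acts on it. It was lower in members (log2 fold change -1.92, adjusted p = 9.34e-09, edgeR), at 130.0, 29.9 and 29.7 CPM against 181, 136 and 105 CPM, and 6 of the 7 control UMIs lay in a single cell.

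Of 10 genes of capillary resident progenitors (CRP, an immature capillary population of lymphoid tissue), 3 were lower in members than in other blood EC (Apln, Esm1 and Trp53i11) and 1 higher (Kcne3). Against capillary-gate EC 7 of 10 were lower, including the basement membrane genes Col4a1 (log2 fold change -1.28) and Col4a2 (-1.15). Of the cell-cycle genes 3 of 10 were lower than in other blood EC and 6 of 8 lower than in capillary-gate EC. Cells with 3 or more cell-cycle UMIs were 0 of 20, 5 of 242 and 0 of 34 members, against 1.02%, 3.71% and 1.93% of other blood EC. The members' exact intervals reached 16.8%, 4.76% and 10.3%, so these shares cannot be told apart. Of 11 tested Notch pathway genes Hey1, Jag1 and Sox17 were higher than in other blood EC, and Hey1, Dll4, Notch4 and Jag2 were lower than in arterial-gate EC (4 of 10). Flow-responsive genes gave no call of 6 against other blood EC, while Klf2, Klf4 and Procr were higher than in capillary-gate EC, with log2 fold changes of 0.73, 0.88 and 1.05. No immediate-early gene of 11 passed against other blood EC, and of 10 interferon-response genes Cxcl10 (log2 fold change -1.66) and Rsad2 (-2.68) were lower.

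The pathways that Cyp1a1 and Cyp26a1 are known for showed no matching set of calls. None of 5 tested genes of the aryl hydrocarbon receptor list passed against other blood EC. Ahr itself had a log2 fold change of 0.56 (adjusted p = 0.238, edgeR), Tiparp of -0.53 (adjusted p = 0.703, edgeR) and Nqo1 of 0.42 (adjusted p = 0.835, edgeR). Of the retinoid genes, Stra6, a retinol importer, was lower in members (log2 fold change -3.47, adjusted p = 6.12e-15, edgeR), and none was higher. Cyp26b1, the related retinoic acid hydroxylase, had a log2 fold change of -0.26 (adjusted p = 0.819, edgeR).

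Madcam1 (chr10:79664559-79668537) stood in members below other blood EC and, in the EC-iCOUP OE libraries, above arterial-gate EC. It was at 706, 1981 and 2659 CPM in members of the control, replicate 1 and replicate 2, and at 6244, 3563 and 2951 CPM in other blood EC (log2 fold change -1.39, adjusted p = 3.94e-06, edgeR). The call was lost with DESeq2 (adjusted p = 0.182) and without EC-iCOUP OE replicate 1 (adjusted p = 0.0591, edgeR), with the direction kept in both. In arterial-gate EC it was at 123, 576 and 320.1 CPM, and the log2 fold change of members was 2.30 (adjusted p = 2.77e-09, edgeR). Members were higher in both EC-iCOUP OE libraries, but in the control the direction turned without a single cell, described next, which left members at 21.7 CPM. In capillary-gate EC it was at 221, 1782 and 2280.0 CPM, and the difference from members did not pass (log2 fold change 0.40, adjusted p = 0.102, edgeR). In PCV-gate EC it was at 7741, 4127 and 4991 CPM (log2 fold change -1.84, adjusted p = 1.15e-06, edgeR). In EC-iCOUP OE libraries, members therefore sat near capillary-gate EC in Madcam1.

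The control value of Madcam1 rested on 1 cell. Of 38 Madcam1 UMIs in the 20 control members, 37 lay in a cell of 7845 UMIs that also held 7 UMIs of Selp and Ackr1, and 1 lay in another. In replicate 1, 200 of 242 members held a Madcam1 UMI, with a median of 7 per cell and 52 in the highest. In replicate 2, 25 of 34 did, with a median of 5.5 and 31 in the highest. The EC-iCOUP OE members carried Madcam1 broadly, whereas 18 of 20 control members held none. At 1000 UMIs per cell the expected share of members with a Madcam1 UMI was 6.89%, 67.1% and 65.9%, against 10.0%, 82.6% and 73.5% at full depth. Lymphocyte-like cells, which should not express it, gave 2 of 13, 0 of 7 and 0 of 3 at full depth, taken as background. Their median depths were 2187, 3222 and 6351 UMIs, and their shares at 1000 UMIs were 9.70%, 0% and 0%. The source of this background, such as free RNA, was not tested. With 13 such cells in the control, its member share cannot be told apart from that background and is not read as expression across the members. This does not bear on the level in the cell with 37 UMIs.

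Nr2f2 (chr7:70351944-70366735) separated the genotypes within the members, but not the members from other blood EC. It had 3 UMIs in control members (55.7 CPM), 1600 in replicate 1 (1495 CPM) and 108 in replicate 2 (1068 CPM). Other blood EC had 123, 1697 and 1150.5 CPM, and the difference from members did not pass (log2 fold change -0.36, adjusted p = 0.661, edgeR). Counts do not separate transcripts of the transgene from those of the native gene. An Nr2f2 UMI was seen in 15.0%, 94.2% and 82.4% of members, and the share expected at 1000 UMIs per cell was 3.09%, 72.7% and 58.2%. Lymphocyte-like cells gave 2.53%, 4.14% and 0% by the same measure, so the control members lay close to the background. Members were then split by whether a cell thinned to 1000 UMIs held an Nr2f2 UMI. In replicate 1, Madcam1 was seen in 70.6% of cells with Nr2f2 (125 of 177, exact interval 63.3 to 77.2%) and 58.5% of cells without (38 of 65, 45.6 to 70.6%), and the intervals overlapped. In replicate 2 the shares were 90.5% (19 of 21, 69.6 to 98.8%) and 30.8% (4 of 13, 9.09 to 61.4%) in that draw. Over 20 draws of the same cells, which vary by the draw alone, the shares in replicate 1 ranged from 67.0 to 77.6% with Nr2f2 and from 46.6 to 61.3% without, and in replicate 2 from 61.1 to 94.4% and from 12.5 to 62.5%. The direction of the medians was the same in both replicates (71.9% against 54.8%, and 83.3% against 46.9%). By counting error in the first draw, the intervals overlapped in replicate 1 but not in replicate 2. By the draw, the ranges overlapped in replicate 2 but not in replicate 1. Cells of 1 library are not replicates, so the difference was not tested.

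Nkx2-3, the homeodomain gene, was at 1115, 586 and 633 CPM in members and 474, 413 and 407 CPM in other blood EC. Members were higher in each library, but the call did not pass (log2 fold change 0.57, adjusted p = 0.0988, edgeR), while it did against capillary-gate EC (log2 fold change 0.64, adjusted p = 0.00128, edgeR). Hey1, the Notch-driven repressor, was at 223, 71.0 and 109 CPM in members, 105, 26.3 and 57.2 CPM in other blood EC and 336, 209.9 and 107 CPM in arterial-gate EC. Its log2 fold change was 1.08 against other blood EC (adjusted p = 0.000383, edgeR) and -1.08 against arterial-gate EC (adjusted p = 0.0371, edgeR). St6gal1, a sialyltransferase that builds a glycan ligand of B cells, had 0, 10 and 1 UMIs in members, too few to rank the libraries (log2 fold change -1.51 against other blood EC, adjusted p = 0.0478, edgeR).

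**Figure D5:**
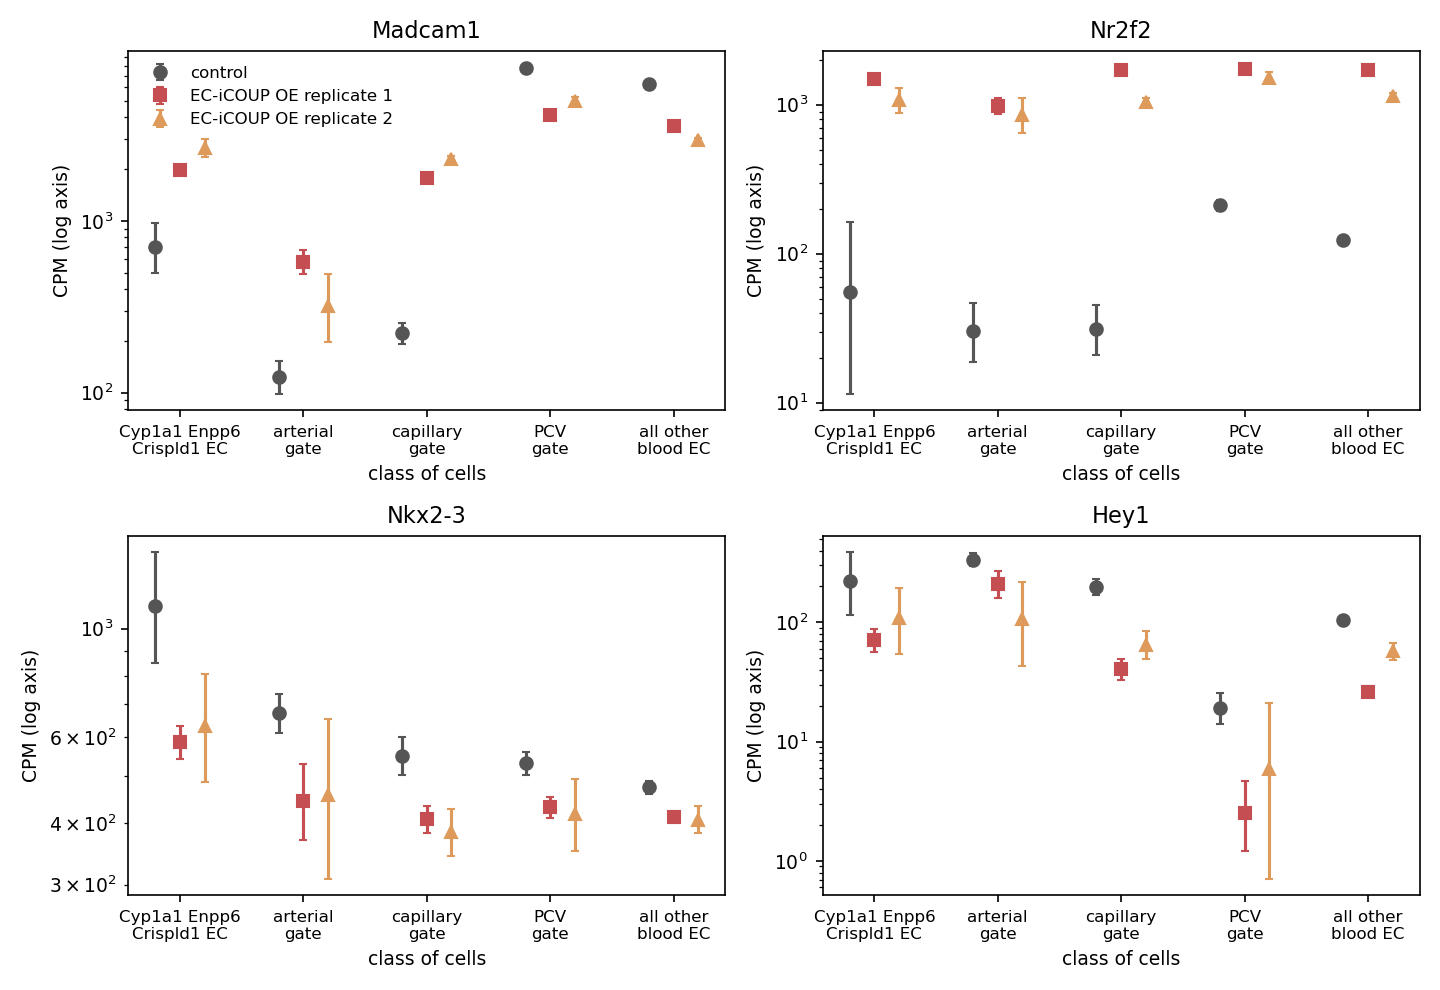
CPM of Madcam1, Nr2f2, Nkx2-3 and Hey1 (log axes) in members, the 3 reference gates and all other blood EC, by library, with Poisson 95% intervals that cover counting error only. In the EC-iCOUP OE libraries members lay between the arterial gate and the PCV gate for Madcam1, while the control point of the members rests on 1 cell, without which it is at 21.7 CPM, below the arterial gate. The control stood apart from both EC-iCOUP OE libraries for Nr2f2 in every class.

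Between genotypes, EC-iCOUP OE members had more Nr2f2, Madcam1 and venous transcripts and fewer arterial transcripts than control members. Madcam1 was higher by a log2 ratio of 1.49 in replicate 1 (interval 1.03 to 1.99) and 1.91 in replicate 2 (1.42 to 2.44), a mean of 1.70 ± 0.30 (SD, n = 2). Both ratios divide by the same control library, so they are not independent. This SD and those below cover the spread of the EC-iCOUP OE libraries only. Without the control cell that held 37 UMIs, a choice made after the data were seen, the control was left with 1 UMI and the log2 ratios were 6.51 (4.03 to 11.8) and 6.93 (4.44 to 12.2). In other blood EC the mean log2 ratio was -0.95 ± 0.19 (SD, n = 2), the opposite direction, in a class that held 261, 193 and 2 cells with 2 or more HEV UMIs in the 3 libraries. In the arterial and capillary gates Madcam1 was higher in both EC-iCOUP OE libraries than in the control, as in members, by the levels given above. The ratio in members also depended on the rule, with a mean of 0.14 when the upper limit on venular genes was lifted and -0.0009 when 5 rule UMIs were asked for. Nr2f2 was higher in EC-iCOUP OE members by 4.50 ± 0.34 (SD, n = 2). Of 11 venous genes with 30 or more UMIs in members of at least 1 library, Vwf, Lrg1, Ctsh and Slco2a1 were at least 2-fold higher in both replicates with both intervals clear of no change, and Ackr1 was lower. All 7 Ackr1 UMIs and all 10 Lrg1 UMIs of the control members lay in the cell that held most of their Madcam1, so that Ackr1 was not lower without it, while Lrg1 stayed higher. Vwf was higher by 4.21 and 3.96 on the log2 scale and Slco2a1 by 3.62 and 3.25. Both genes were also higher in EC-iCOUP OE in the other classes: Vwf was at 76.8, 882 and 533 CPM in arterial-gate EC and 31.3, 436 and 274 CPM in capillary-gate EC, and Slco2a1 at 217, 676 and 457 CPM and at 287, 960.0 and 654 CPM, so the difference is not particular to the members. Ctsh had 0 UMIs in control members and was higher by at least 1.67 and 1.31 on the log2 scale, against a floor of 3 UMIs. Of 16 arterial genes Gja5, Gja4, Efnb2, Jag1 and Vegfc were lower by the same measure (all but Jag1 also without that cell) and Stmn2 was higher, by 1.41 and 1.04. Without that cell Sema3g, Cxcl12 and Edn1 were lower by this measure too. Gja4 fell by 1.60 and 1.89 and Efnb2 by 2.07 and 2.08. Gja5 was lower in EC-iCOUP OE in other blood EC too, at 35.8, 8.04 and 8.54 CPM. The arterial sum without the gates' genes and Clu was also lower in capillary-gate EC, at 3260, 1634 and 2004 CPM. In arterial-gate EC that sum was not lower, at 7490, 7639 and 8384 CPM. A fall of arterial transcripts is thus not particular to the members.

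Control members held a larger share of arterial-gated cells (45.0% against 10.3% and 20.6%), and were few, so a change in the mix of cells and a change within cells cannot be told apart. Over all 5024 genes counted, 373 were at least 2-fold higher in both replicates (7.42%) and 270 lower (5.37%), with 12.8% in all, but with 53831 UMIs behind the control members a 2-fold step is within reach of counting error for low genes. With both intervals clear of no change the counts were 80 higher (1.59%) and 101 lower (2.01%). These intervals cover counting error only and hold no spread between cells or mice, so the counts are a description. By the same measure 48 genes were higher and 34 lower of 3791 in arterial-gate EC. The counts were 243 and 161 of 7665 in capillary-gate EC and 246 and 138 of 8787 in PCV-gate EC. Ordered by the smaller of the ratios, the most raised genes were Nr2f2, Ftl1-ps1, Vwf, Adamts1, Cebpb, Slco2a1, H2-Q4, Rpl29, Palm and Apoe. Adamts1, Cebpb, H2-Q4 and Palm each rested on 1 UMI in control members. Apoe, the lipid carrier, was at 149, 1051 and 1295 CPM in members but at 1901, 2301 and 1486 CPM in other blood EC, and Adamts1, a matrix protease, at 18.6, 229 and 267 CPM against 147, 150.1 and 253 CPM. Cebpb, a transcription factor, was at 18.6, 207 and 208 CPM in members and at 53.7, 244 and 293 CPM in other blood EC, where it was likewise lowest in the control. Ftl1-ps1 is a pseudogene whose counts may belong to its parent gene. The most lowered genes were Serpinf1, Syt15, Sfswap, 2900026A02Rik, Fhl1, Pkd2, Edc3, Trim25, Ackr1 and Odc1. The same control cell held 7 of 7 Ackr1 UMIs and 6 of 7 Odc1 UMIs of the control members, and without it neither Ackr1, Odc1 nor Edc3 was lower with both intervals clear of no change. Syt15, a synaptotagmin, was at 372, 72.0 and 69.2 CPM in members against 111, 74.6 and 53.4 CPM in other blood EC. Trim25 (134, 50.3 and 36.7 CPM) and 2900026A02Rik (135, 58.5 and 49.5 CPM) were lower in EC-iCOUP OE in other blood EC too. Their fall is thus not particular to the members. Sfswap did not fall in other blood EC, at 43.3, 44.1 and 46.1 CPM.

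Of 6 further endothelial genes (Kdr, Tie1, Tek, Erg, Esam and Cldn5) none passed as higher in members than in other blood EC and Cldn5, a tight junction gene, was lower. Of the 6 genes, 3 had higher values in members in all 3 libraries and 1 lower. Lymphocyte markers (Ptprc, Cd79a, Cd79b, Cd3e, Cd3d and Cd52) had 0 UMIs in all members. Markers of mural cells, the smooth muscle and pericytes around blood vessels, moved with the members in 1 library. They summed to 1778 UMIs in members of replicate 1 (1661 CPM against 461 CPM in other blood EC), with Tagln highest at 594 UMIs. All 8 mural genes were detected there, and 40 of 242 members (16.5%) held 2 or more of their UMIs against 5.61% of other blood EC. In the control the sum was 22 UMIs in members and in replicate 2 it was 6, with Cspg4 at 0 in both. Accordingly 6 of 7 tested mural genes were higher in members, and without replicate 1 none was. When cells with 2 or more UMIs of epithelial, glial, neuronal, mural, lymphocyte, macrophage or erythroid markers were left out of all classes, 12 of 16 tested arterial genes were still higher and 1 lower, and the shares of members were 0.771%, 6.20% and 2.70%. Of 9 epithelial markers 0, 5 and 5 were detected in members, with 0, 91 and 18 UMIs in all (0, 85.0 and 178 CPM, against 3.99, 139 and 327 CPM in other blood EC). The keratin gene Krt19 was the most abundant, with 76 and 14 UMIs, and Lgals4 followed with 9 and 1, while Epcam had 0 and 1. Haemoglobin transcripts had 0, 2 and 43 UMIs in members, with Hbb-bs highest at 22 in replicate 2. Hbb-bs was at 0, 0.93 and 217 CPM in members against 512, 47.9 and 12.8 CPM in other blood EC. It was thus higher in members of replicate 2 alone, while 3 of 4 haemoglobin genes passed as lower over the 3 libraries.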

How the data were processed

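The authors deposited UMI counts per gene and cell for 3 droplet libraries, aligned to mm10 with Cell Ranger 3.0.2 per the labels, while the header of EC-iCOUP OE replicate 1 names 3.1.0. From these counts, cells were chosen by the rule given above, and 71 repeated symbols were summed. No doublet caller was run. UMIs were summed per library and class, genes were filtered with filterByExpr, and edgeR 4.0.16 (R 4.3.3, TMM, quasi-likelihood, library as block) was fitted over all genes, with Benjamini-Hochberg adjustment at 0.05 and DESeq2 1.42.0 as an alternative. The library block pairs members with the comparison cells of the same library. Scripts (Python 3.11.15, numpy 2.4.6, scipy 1.17.1, pandas 2.3.3) were tested on simulated data. Thinning drew 1000 UMIs per cell without replacement. The most evenly changed genes were the 10 called in each direction with the same sign in 3 libraries and the largest smallest ratio. List examples were to be the genes with most UMIs in members; further examples named beside them, such as Gja5, Gpihbp1, Car4, Aplnr and Ctsh, were chosen after their values were seen. Genotypes were compared by CPM ratios with exact conditional intervals. Members, gates and gene lists were chosen with earlier results of these data known, so tests describe repeatability over the 3 libraries and are not independent evidence. Nothing in the sources used here gives the number of mice behind a library. Not every tested gene of the lists is reported here.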

Additional observations from a re-analysis of the deposited data

Results flagged for a closer look

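The prostaglandin transporter gene Slco2a1 differed from other blood EC in opposite directions in the control and in EC-iCOUP OE. In the control library members had less of it than other blood EC (log2 ratio -1.85), while in EC-iCOUP OE replicates 1 and 2 they had more (log2 ratios 0.49 and 0.65). The control value rested on 7 UMIs in 20 members, and the difference between genotypes was not tested.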

How the results depend on the processing

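The share of members moved with the rule: with 2 UMIs it was 2.11%, 11.9% and 8.90% in the control, replicate 1 and replicate 2, with 5 UMIs 0.203%, 2.13% and 0.932%, and after thinning 0.243%, 1.16% and 0.828%. With at least 2 rule genes it was 5.56% in replicate 1 and 2.28% in replicate 2. At full depth 82.6% of replicate 1 members held a Madcam1 UMI, and 94.2% and 82.4% of EC-iCOUP OE members an Nr2f2 UMI.

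Counts of called genes fell under most alternatives. Against other blood EC they were 106 with 5 UMIs, 49 after thinning, 87 with DESeq2 and 63 to 417 leaving out 1 library. Against arterial-gate EC they were 66 with 2 UMIs, 28 after thinning, 15 without cells holding other cell markers, 5 with DESeq2 and 4 to 15 leaving out 1 library. Against capillary-gate EC they were 78, 56 and 102 with 5 UMIs, thinning and DESeq2, and 112 to 479 leaving out 1 library. Against PCV-gate EC they were 246 with DESeq2 and 203 to 796 leaving out 1 library.

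Without the library block, which pairs cells of 1 library, edgeR called 1 gene against other blood EC (425 at an unadjusted p under 0.05), 0 against arterial-gate EC (85 unadjusted; DESeq2 with the block called 5), 15 against capillary-gate EC and 78 against PCV-gate EC. No paired analysis was possible between genotypes because there was 1 control library.

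Between genotypes, 240 genes stood 2-fold apart in members with 5 rule UMIs, 119 after thinning, 198 with a minimum of 100 UMIs, 181 with both intervals clear of no change, and 123 to 1155 with 1 EC-iCOUP OE library. The Madcam1 log2 ratio was 2.38 with 2 UMIs, -0.0009 with 5 UMIs, 1.15 with 2 rule genes, 0.14 without the upper limit, 6.85 without cells holding other cell markers, 6.72 without 1 control cell and 1.49 to 1.91 by library. That of Nr2f2 was 4.90 with 2 UMIs, 5.82 without cells holding other markers and 4.26 to 4.75 by library. Of 364 values of 28 named genes, 65 lost the call, 3 gained it and 0 changed direction; 25 of the losses came without the block and 14 after thinning. Without 1 control cell, a choice made after the data were seen, Ackr1, Odc1, Edc3 and Jag1 were no longer lower between genotypes with both counting intervals clear of no change. Sema3g, Cxcl12 and Edn1 became lower by that measure. Single draws of thinning misled in small groups: the first draw kept Gja4 in 20 of 20 control members where 71.2% was the expected share. The control's 20 cells and 53831 UMIs limit every comparison of genotypes.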

Other observations

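The features for TdTomato and CreERT2 had 0 UMIs in the control library and in EC-iCOUP OE replicate 2, and replicate 1 does not list them.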
